A study of Mus musculus with 6 samples.

Results

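Axon guidance ligands and receptors were followed in the clonal mouse astrocyte line C8-D1A, on arrays from untreated cells and from cells given pulsed radiofrequency (PRF). The set comprised every array probe whose transcript belongs to a semaphorin, plexin, neuropilin, ephrin, Eph receptor, Slit, Robo, netrin (Ntn1, Ntn3, Ntn4 or Ntn5) or Unc5 symbol, or to Dcc or Neo1. This gave 118 of the 56605 probes, for 72 of the 22911 named genes. The rule works by symbol prefix and also took in Plxna4os1, Unc50 and Unc5cl, which are not ligands or receptors of guidance cues, so 69 genes carry the name in its usual sense.

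Both groups were the same line, labelled astrocyte, grown for 6 days in medium with 10% serum and then held without serum for 24 h. The control group had 3 untreated cultures and the PRF group 3 treated ones, from independent experiments per the series description, and each was read on 1 one-colour Agilent array. A single line derived from 1 clone stands for astrocytes here, and the sources used here give neither the settings nor the length or timing of the PRF. The comparison asked how expression differed between untreated cells and cells after PRF, an electrical treatment for neuropathic pain.

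Guidance cues steer growing axons and migrating cells by attraction or repulsion. Semaphorins act on plexins, with neuropilins as co-receptors for most secreted class 3 members. Ephrins on one cell bind Eph receptor tyrosine kinases on another and can signal in both directions, Slits act on Robos, and netrins act on Dcc, neogenin and Unc5 receptors. Astrocytes are known to express members of several of these families, for example at scar borders and at their contacts with neurons.

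Levels below are log2 signals relative to the array's 75th percentile. A level compares arrays for 1 probe but not 1 probe with another. Between 33669 and 34637 probes (59.5% to 61.2%) per control array and between 35146 and 36188 (62.1% to 63.9%) per PRF array were well above background. A probe was tested if all 3 arrays of a group, either one, detected it above background. All 6 arrays lay on 1 slide with 1 scan, in 2 rows of array positions, and the number of arrays limits the precision. Of the astrocyte markers, 8 of 10 were well above background on all 6 arrays, Gfap, Aqp4 and S100b among them, whereas Slc1a3 and Gja1 were on none. All 5 oligodendrocyte lineage markers considered, Sox10 among them, and 6 of 9 neuronal markers were well above background on all 6 arrays too. So were 3 of 6 microglial, 3 of 6 fibroblast and 2 of 5 endothelial markers. In RNA from a whole culture, fewer cells of a type and less RNA per cell cannot be told apart.

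After PRF, 13 axon guidance genes rose and 9 fell among the 58 that could be tested. Some rises were large in the main setting: Epha10, Sema4a and Efnb3 rose over 4-fold, and 10 rises but no falls reached 2-fold. These sizes depended on the processing. With normexp correction of the median signals, Epha10, Sema4a and Efnb3 changed by 1.47, 1.84 and 1.68 on the log2 scale, each below 4-fold. Spike-in scaling gave 2.26, 1.97 and 1.83 in that order. By family, 5 of 6 tested EphA receptors, 3 of 8 ephrins, 4 of 19 semaphorins and 1 of 3 tested netrins (Ntn3) rose. Sema3d, Epha1 and Epha6 entered the test only through their PRF arrays, so they could enter only as brighter after PRF. Among probes well above background on all 6 arrays 10 of 54 tested genes rose and 9 fell. Under that filter 6 Eph receptors and 6 semaphorins passed in place of 8 and 7. There 35.2% of the guidance genes passed, against 27.9% of all tested genes. The falls came from 3 semaphorins, 3 Eph receptors, 1 ephrin, 1 plexin and 1 neuropilin. A call is an adjusted p below 0.05 from limma's moderated test, with p-values adjusted by Benjamini-Hochberg over all 34838 tested probes, and each gene is represented by its tested probe with the highest mean. With the probe of lowest variance in its place, 13 guidance genes rose and 6 fell. The share of all genes under that choice is not given here.

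These counts are set beside the same shares over the whole array, where much changed, and no test of the difference was made. The guidance genes that passed were 37.9% of those tested, against 29.8% of all 15069 tested genes. Rises made up 22.4% of the guidance genes, against 16.3% of all genes, and falls 15.5% against 13.5%. Rises of at least 2-fold were 10 of 58, against 8.06% of all genes, and 0 falls reached 2-fold, against 0.518% of all genes. At the level of probes, 25 of 81 passed (30.9%), against 31.1% of all tested probes. The groups did not overlap for 30 of 58 guidance genes (51.7%), against 51.1% of all genes, and they did not overlap for any of the 22 that passed. The median change was -0.06 over the guidance genes and -0.01 over all tested genes.

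**Figure D1:**
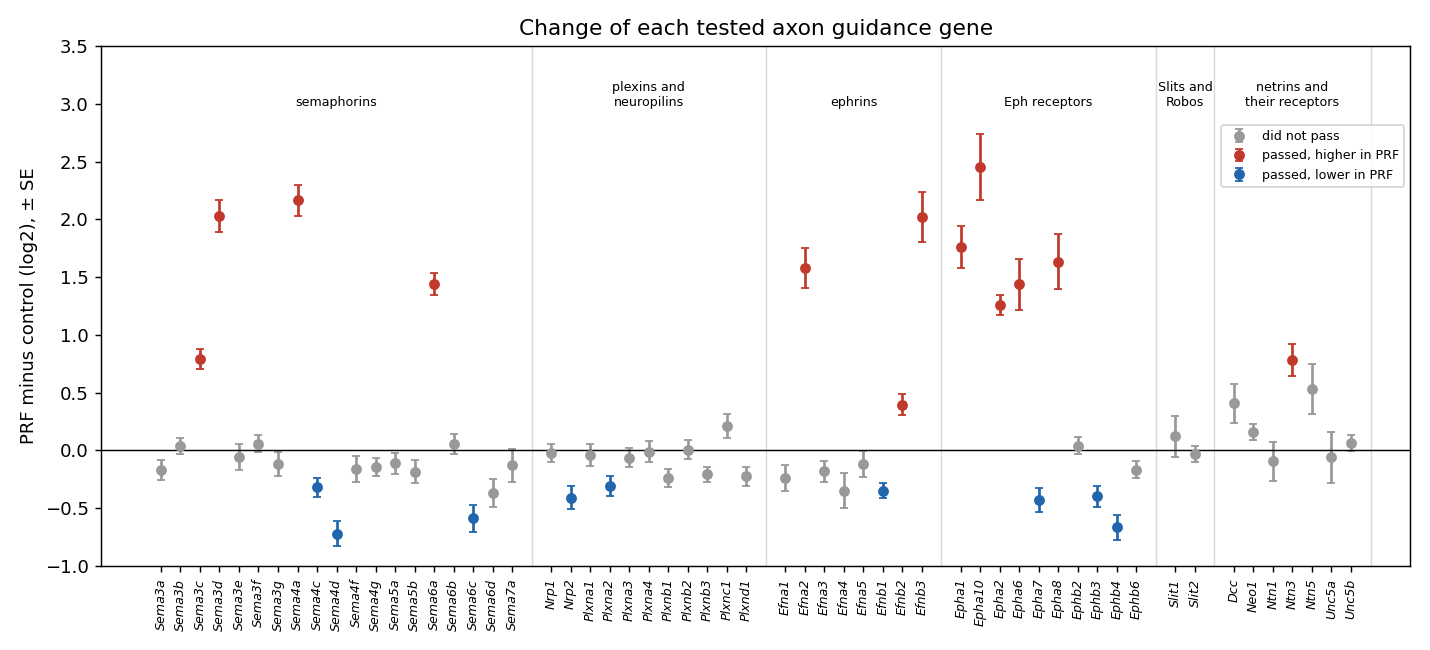
Change of each tested ligand and receptor gene, PRF minus control on the log2 scale with its standard error (3 arrays a group), by family. Epha1, Epha2, Epha6, Epha8, Epha10, Efna2, Efnb3, Sema3d, Sema4a and Sema6a form the upper points at 1.26 to 2.45, while no plexin or neuropilin rose and the falls lie between -0.31 and -0.72.

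Of the 19 semaphorins, 4 were higher after PRF. The membrane-bound Sema4a, known for signalling between immune cells as well as through plexins, was one of them. Its levels were -1.30, -1.53 and -1.49 in control and 0.88, 0.84 and 0.45 in PRF cells. Every PRF array was thus above every control array, by a change of 2.16 (SE 0.13, 4.48-fold, adjusted p = 1.84e-04). Within the array rows the change was 2.24 (row 1) and 2.19 (row 2).

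Sema6a, a transmembrane ligand of A-type plexins, rose on both of its tested probes. The brighter probe read 0.69, 0.50 and 0.55 in control and 2.11, 2.09 and 1.85 in PRF cells, a change of 1.44 (SE 0.10, 2.71-fold, adjusted p = 2.41e-04). The second read -1.18, -1.10 and -1.22 against 1.16, 1.26 and 0.98, a change of 2.30 (SE 0.09, 4.92-fold, adjusted p = 5.72e-05). The probes agree on the direction, with no overlap of the groups on either, but differ in the size.

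Among the secreted class 3 semaphorins, 2 of 7 rose. Sema3c, a neuropilin ligand known from heart outflow development, read -0.09, -0.14 and -0.17 in control and 0.51, 0.74 and 0.72 in PRF cells. The PRF arrays were all higher, by 0.79 (SE 0.08, 1.73-fold, adjusted p = 0.00124). In control cells none of the 3 arrays had Sema3d well above background (-6.68, -6.43 and -6.57), and all 3 PRF arrays did (-4.34, -4.81 and -4.44). It was at least 2.37-fold higher (adjusted p = 2.66e-04). That bound sets the PRF mean against the dimmest signal still detected on each control array, or the probe's own signal if higher. With normexp correction of the median signals and an added offset of 50, in place of the scanner's processed signal, the fitted change of Sema3d was 0.45 against 2.03. The bound therefore holds for the processed signals alone.

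Sema3a, the best-known repulsive class 3 cue, did not pass on its brighter probe, at -2.50, -2.39 and -2.39 in control and -2.74, -2.53 and -2.53 in PRF cells (change -0.17, adjusted p = 0.177). Its other probe, at -2.52, -2.18 and -2.49 against -2.85, -2.70 and -2.76, fell by 0.38 log2 units (SE 0.11, adjusted p = 0.0426). Sema3b, also secreted, differed by 0.04 (adjusted p = 0.69), with overlapping groups. The remaining class 3 genes, Sema3e, Sema3f and Sema3g, had changes of -0.06, 0.06 and -0.12 and did not pass.

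Another 3 semaphorins were lower, each of them membrane-bound. Sema4d, a ligand of B-type plexins, read 0.25, 0.33 and 0.42 in control and -0.51, -0.47 and -0.17 in PRF cells. It fell by 0.72 on the log2 scale (SE 0.11, 1.65-fold, adjusted p = 0.00476), and no arrays overlapped. Sema6c, a class 6 ligand of A-type plexins, read -1.89, -1.71 and -1.65 against -2.26, -2.54 and -2.20, and fell by 0.59 (SE 0.12, 1.50-fold, adjusted p = 0.0118). Its second probe did not pass (change -0.08, adjusted p = 0.663), so the fall of Sema6c rests on 1 probe.

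Sema4c, a ligand of plexin B2, fell by less. It read 6.37, 6.37 and 6.40 in control and 5.91, 6.11 and 6.15 in PRF cells, a fall of 0.32 on the log2 scale (SE 0.08, 1.25-fold, adjusted p = 0.0293). Its 2 other probes had changes of -0.29 and -0.17 and did not pass (adjusted p = 0.123 and 0.152). Sema4c lost its call without Control 1, 2 or 3 or PRF 1 or 2, with adjusted p between 0.0573 and 0.0838. The 12 semaphorins that did not pass had changes between -0.37 (Sema6d, adjusted p = 0.0603) and 0.06.

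For each of these class 4 genes that fell, 1 promoter window holds a motif of an activity-regulated factor and is printed for that reason. The second window of Sema4c and the other 2 of the 3 for Sema4d, at further annotated starts, hold none of the motifs searched apart from any GC box. Each window runs from 250 bases before to 50 bases after the annotated start, 5′ to 3′ on the gene's strand, from RefSeq on GRCm38.p6. Sema4c lies at chr1:36558332-36558631 on the minus strand, with the AP-1 motif TGACTCA in capitals, beginning 22 bases before the start. Sema4d lies at chr13:51748761-51749060 on the minus strand, with a CArG box (the serum response factor motif) in capitals, beginning 231 bases before the start.
Sema4c: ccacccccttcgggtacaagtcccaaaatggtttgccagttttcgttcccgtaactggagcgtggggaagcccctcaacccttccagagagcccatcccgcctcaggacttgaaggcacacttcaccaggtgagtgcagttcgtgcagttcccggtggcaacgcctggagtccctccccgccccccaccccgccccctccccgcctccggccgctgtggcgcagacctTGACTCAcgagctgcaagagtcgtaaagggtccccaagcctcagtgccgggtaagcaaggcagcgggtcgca
Sema4d: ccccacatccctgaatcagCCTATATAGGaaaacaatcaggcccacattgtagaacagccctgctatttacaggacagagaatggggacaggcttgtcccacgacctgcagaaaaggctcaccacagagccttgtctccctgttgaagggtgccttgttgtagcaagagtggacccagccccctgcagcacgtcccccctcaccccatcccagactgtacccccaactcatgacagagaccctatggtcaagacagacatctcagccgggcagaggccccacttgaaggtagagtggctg

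Next come the receptors of the semaphorins. Of 9 plexins and 2 neuropilins, 0 rose and 2 fell in limma's test, and the median change was -0.06. At an unadjusted p below 0.05 still 0 rose, and 5 were lower, a count with no share of all genes at that threshold beside it. Nrp2, a co-receptor for class 3 semaphorins and for VEGF, read 5.78, 5.85 and 5.88 in control and 5.23, 5.48 and 5.58 in PRF cells. It fell by 0.41 on the log2 scale (SE 0.10, 1.33-fold, adjusted p = 0.0255), with no overlap. Its 2 other probes had changes of -0.36 and -0.19 (adjusted p = 0.0539 and 0.149).

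Plxna2, a receptor of class 6 semaphorins such as Sema6a, read 1.91, 2.14 and 2.0 in control and 1.64, 1.70 and 1.78 in PRF cells. It fell by 0.31 on the log2 scale (SE 0.09, 1.24-fold, adjusted p = 0.0366), while its second probe, with a change of -0.23, did not pass (adjusted p = 0.131). Both receptor calls depended on single arrays. Nrp2 had an adjusted p of 0.0557 to 0.0781 without Control 1, 2 or 3 or PRF 2, and Plxna2 one of 0.0849 to 0.104 without Control 2 or 3 or PRF 1 or 2. Nrp1, the class 3 co-receptor most used by Sema3a, had a change of -0.02 (adjusted p = 0.841) with a 95% interval of -0.21 to 0.16. Of its 3 tested probes, 2 had that sign and 0 passed. For Plxna1 the change was -0.04 (interval -0.27 to 0.19) and for Plxnb2, a receptor of Sema4c and Sema4d, 0.01 (interval -0.20 to 0.21). Changes up to those bounds, in either direction, remain possible at this precision. The other 6 plexins had changes between -0.24 and 0.21 and did not pass, with Plxnb3 the nearest (-0.21, adjusted p = 0.0552).

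The window of Plxna2 is printed because it holds the EGR motif GCGTGGGCG, which begins 87 bases before the start and stands in capitals. It lies at chr1:194619579-194619878 on the plus strand (RefSeq, GRCm38.p6).
Plxna2: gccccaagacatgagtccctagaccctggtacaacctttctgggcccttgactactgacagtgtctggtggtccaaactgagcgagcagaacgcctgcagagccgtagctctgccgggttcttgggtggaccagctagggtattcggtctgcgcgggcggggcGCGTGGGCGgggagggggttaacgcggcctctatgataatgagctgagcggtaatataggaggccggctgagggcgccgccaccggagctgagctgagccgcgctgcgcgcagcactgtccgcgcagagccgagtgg

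**Figure D2:**
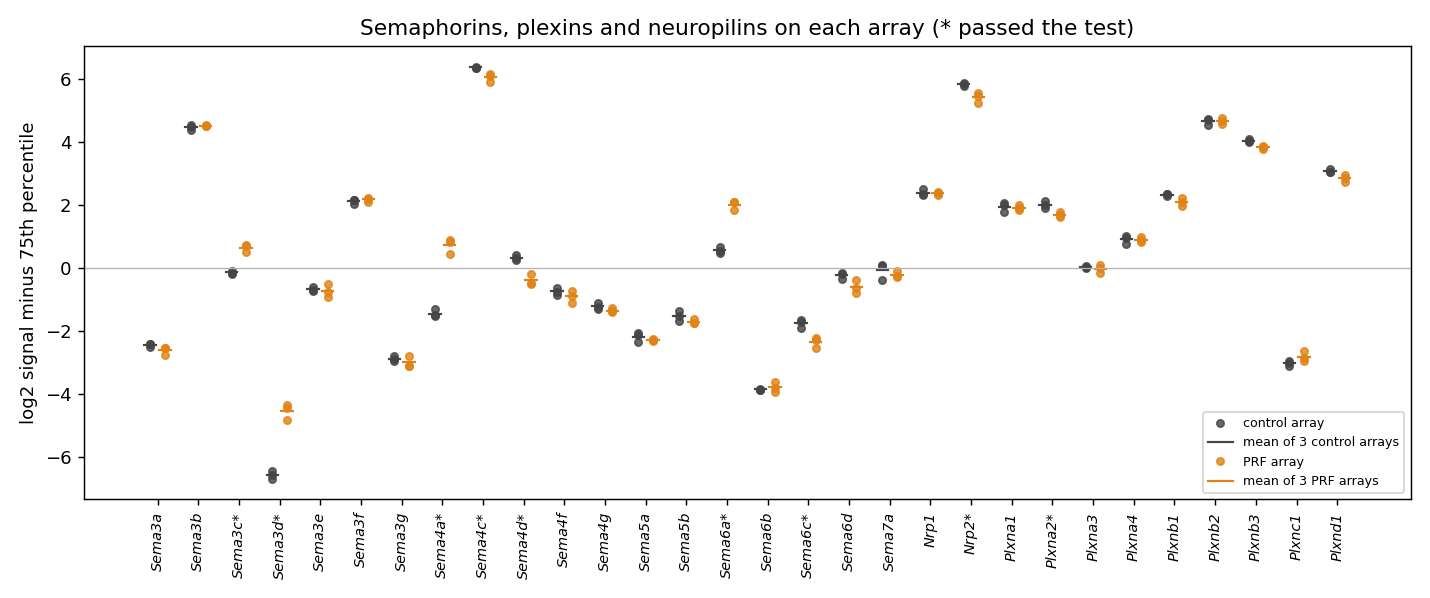
Log2 signal relative to the 75th percentile of each semaphorin, plexin and neuropilin on each of the 6 arrays, with the mean of each group as a line and an asterisk on genes that passed. Sema3d, Sema4a and Sema6a separate widely, whereas Nrp2 and Sema4c, near 6 in control cells, shift by -0.41 and -0.32.

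Ephrins changed in both directions. Efnb3, a transmembrane ephrin known from the midline of the nervous system, read -2.05, -2.10 and -1.72 in control and 0.46, 0.09 and -0.37 in PRF cells. All PRF arrays were higher, by 2.02 (SE 0.22, 4.06-fold, adjusted p = 0.00135), although they spread over a wider range than the control arrays. Efna2, a lipid-anchored ligand of EphA receptors, read -1.17, -1.33 and -1.18 against 0.72, 0.29 and 0.04, a rise of 1.58 (SE 0.17, 2.99-fold, adjusted p = 0.00136). PRF 1 was the highest and PRF 3 the lowest of the treated arrays for both genes.

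Efnb2, the partner of Ephb4 in vessels, rose less. Its levels were 0.19, 0.22 and 0.45 in control and 0.64, 0.74 and 0.67 in PRF cells, a rise of 0.40 (SE 0.09, adjusted p = 0.0185). The call was lost without Control 1, Control 2 or PRF 2 (adjusted p = 0.0587 to 0.066), with unscaled signals (change 0.25, adjusted p = 0.0933) and with spike-in scaling (change 0.20, adjusted p = 0.144). Efnb1, the third B ephrin, went the other way, from 2.14, 2.23 and 2.22 to 1.80, 1.84 and 1.90, a fall of 0.35 on the log2 scale (SE 0.06, 1.28-fold, adjusted p = 0.00941). The other A ephrins, Efna1, Efna3, Efna4 and Efna5, had changes of -0.24, -0.18, -0.35 and -0.12 and did not pass.

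Of the 9 EphA receptors on the array 6 could be tested, and 5 of these rose. Epha10, which lacks an active kinase, read -4.14, -4.53 and -3.87 in control and -1.18, -1.81 and -2.19 in PRF cells. It was higher on every PRF array, by 2.45 (SE 0.28, 5.47-fold, adjusted p = 0.00167). A second Epha10 probe, for another transcript, was well above background on 2 control arrays and 0 PRF arrays and was not tested.

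Epha2, an EphA receptor abundant in epithelia and activated by ephrin A1, was well above background on all 6 arrays. It read 0.61, 0.42 and 0.58 in control and 1.83, 1.88 and 1.67 in PRF cells, a rise of 1.26 (SE 0.09, 2.39-fold, adjusted p = 2.77e-04). The groups stood far apart against their spread, and the change was 1.29 in row 1 and 1.33 in row 2.

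The rest of the EphA rises were of dim probes. Epha8 read -4.02, -4.76 and -4.77 in control and -2.66, -2.81 and -3.18 in PRF cells, a rise of 1.63 (SE 0.24, adjusted p = 0.00406). Epha6, well above background on 1 control array, read -5.67, -6.56 and -6.10 against -4.52, -4.86 and -4.64, a rise of 1.44 (SE 0.22, 2.71-fold, adjusted p = 0.00507). The 2 further Epha6 probes were not well above background on any array. For Epha1 none of the 3 control arrays was well above background (-5.97, -6.13 and -5.83) and all 3 PRF arrays were (-3.81, -4.45 and -4.39), which makes it at least 2.94-fold higher (adjusted p = 0.00121). With normexp correction of the median signals and its offset of 50, the changes were 0.69 for Epha8, 0.36 for Epha6, 0.49 for Epha1 and 1.47 for Epha10, against fitted values of 1.63, 1.44, 1.76 and 2.45, and all 4 still passed. The bound for Epha1, like that for Sema3d, holds for the processed signals alone.

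Epha7, known for repulsion and for truncated isoforms, was the EphA receptor that fell. It read 1.62, 1.76 and 1.77 in control and 1.21, 1.18 and 1.48 in PRF cells, a fall of 0.43 on the log2 scale (SE 0.10, 1.34-fold, adjusted p = 0.0225). Its 3 other tested probes, annotated to another transcript, had changes of -0.13, -0.11 and 0.05 and did not pass. The call was lost without Control 2, Control 3, PRF 1 or PRF 2 (adjusted p = 0.07 to 0.0746).

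EphB receptors, which bind mainly B ephrins, had 0 rises and 2 falls among 4 tested, and the same counts at an unadjusted limma p below 0.05. Ephb4 fell on both probes. The brighter read 0.68, 0.88 and 0.81 in control and 0.04, 0.02 and 0.32 in PRF cells, a fall of 0.67 on the log2 scale (SE 0.11, 1.59-fold, adjusted p = 0.00544). The other read -0.82, -0.65 and -0.52 against -1.47, -1.32 and -1.17, a fall of 0.66 (SE 0.11, adjusted p = 0.00725), so both probes gave the same size without overlap.

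Ephb3, which acts with Ephb2 in commissural axons, fell less, from 5.76, 5.77 and 5.88 to 5.27, 5.42 and 5.53, by 0.40 on the log2 scale (SE 0.09, 1.32-fold, adjusted p = 0.0183). Its adjusted p was 0.051 to 0.0601 without Control 2, Control 3 or PRF 2. Ephb2, a receptor active at synapses and in commissural axons, had a change of 0.04 (adjusted p = 0.689) on its brighter probe, with a 95% interval of -0.13 to 0.22. Its other tested probe had the opposite sign and did not pass, and the median over both was -0.07. Ephb6, which lacks kinase activity, had a change of -0.17 (adjusted p = 0.13), and its other tested probe, of opposite sign, did not pass. Epha3, Epha4, Epha5 and Ephb1 were not well above background on any array and have no measured change. The median over the 10 tested Eph receptors was 0.65, but -0.06 over those whose probe was well above background on all 6 arrays.

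The promoter window of Epha2 is printed because it holds the cyclic AMP response element TGACGTCA, found in no other of the 14 windows of the 11 risen genes that have one. The motif, in capitals, begins 33 bases before the start. The window lies at chr4:141300971-141301270 on the plus strand (RefSeq, GRCm38.p6).
Epha2: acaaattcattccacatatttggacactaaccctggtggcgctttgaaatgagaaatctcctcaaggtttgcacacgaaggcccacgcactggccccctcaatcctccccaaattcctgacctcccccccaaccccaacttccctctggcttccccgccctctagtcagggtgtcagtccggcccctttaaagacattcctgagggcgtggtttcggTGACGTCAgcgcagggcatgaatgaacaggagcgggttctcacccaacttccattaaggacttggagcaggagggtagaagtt

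**Figure D3:**
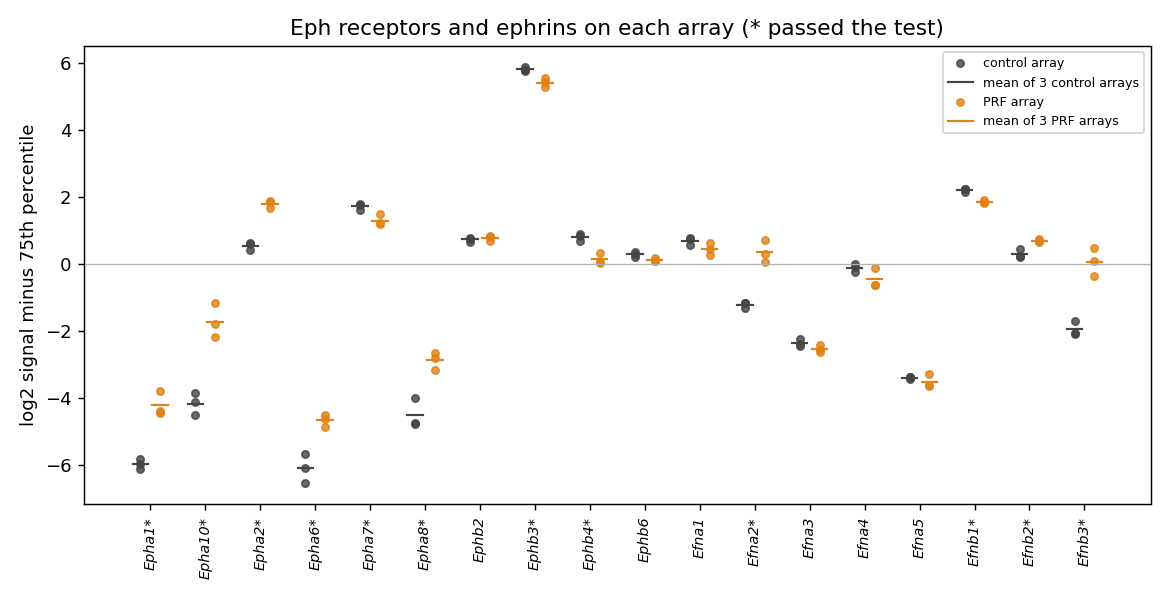
Log2 signal relative to the 75th percentile of each tested Eph receptor and ephrin on each of the 6 arrays, with group means as lines and an asterisk on genes that passed. Epha1, Epha6, Epha8 and Epha10 start between -6.11 and -4.18 in control cells and rise, while Ephb3 starts near 5.80 and falls by 0.40.

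Of the Slits and Robos, Slit1 and Slit2 were measured on all 6 arrays and did not pass. None of the 6 Robo probes was well above background on any array, with levels of -8.11 to -5.93. Slit2, the repellent for which most Robo biology is known, read -0.55, -0.44 and -0.59 in control and -0.54, -0.60 and -0.53 in PRF cells, a change of -0.03 (adjusted p = 0.778) with an interval of -0.20 to 0.14. Its 2 other probes were well above background on 0 control and 2 PRF arrays each and were not tested. Slit1 had a change of 0.12 (adjusted p = 0.642), neither Slit had an unadjusted limma p below 0.05, and Slit3 was not measured above background.

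Among netrins, Ntn3 rose. It read -1.50, -1.61 and -1.83 in control and -0.61, -0.92 and -1.06 in PRF cells, without overlap, a rise of 0.78 (SE 0.14, 1.72-fold, adjusted p = 0.00875). A second Ntn3 probe had no array well above background. Ntn1, the founding netrin, had overlapping groups, at -1.96, -2.02 and -1.87 against -2.43, -1.86 and -1.83 (change -0.09, adjusted p = 0.708). Ntn5 had a change of 0.53 that did not pass (adjusted p = 0.115). Ntn4, known for binding laminins, was well above background on too few arrays to be tested.

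None of the 4 tested netrin receptors passed, and 1 of them, Dcc, had an unadjusted limma p below 0.05. Neo1, which also binds repulsive guidance molecules, read 4.69 on each of the control arrays, against 4.76, 4.89 and 4.90 after PRF, a change of 0.16 (SE 0.07, adjusted p = 0.123). Dcc, the attractive netrin receptor, read 6.27, 6.01 and 5.90 against 6.79, 6.23 and 6.38, a change of 0.41 (SE 0.17, adjusted p = 0.115). Those readings come from 1 of 4 Dcc probes. The other 3 lay between -8.04 and -4.26, and only 1 of these was well above background, on 1 PRF array. Unc5a and Unc5b, repulsive netrin receptors, had changes of -0.06 (adjusted p = 0.856) and 0.07 (adjusted p = 0.49), and Unc5c and Unc5d were not well above background on any array.

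The counts were also set beside genes with control signals in the same range. Of the 30 tested genes with a control mean below the 75th percentile, 10 rose (33.3%) and 1 fell (3.33%), against 29.9% and 11.9% of all tested genes at such levels. Of the 28 at or above it, 3 rose and 8 fell (28.6%), against 6.8% and 14.6% of all tested genes. The control mean that sorts the genes also enters their change. For 4 genes, Sema3d, Epha1, Epha6 and Ntn5, the test was open only because all 3 PRF arrays detected them.

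**Figure D4:**
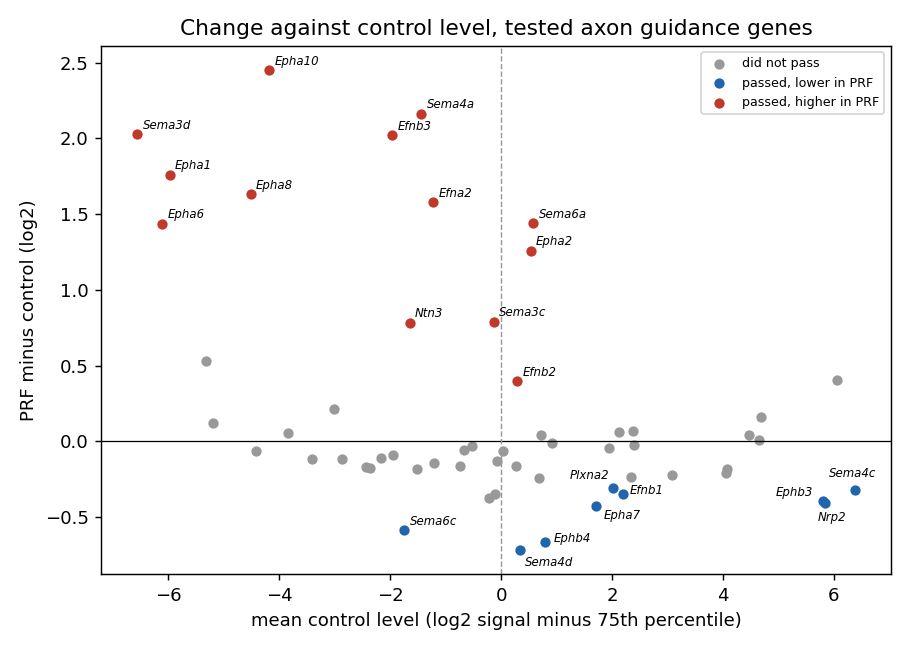
Change after PRF (log2) against mean control level of each tested gene, with names on those that passed and a dashed line at the 75th percentile. Of the 13 rises 10 lie left of the line, and 8 of 9 falls lie to its right.

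Scaling altered the number of falls more than the number of rises. The main scaling gave 13 rises and 9 falls. Subtracting the median gave 13 and 14, unscaled signals 12 and 15, spike-in scaling 12 and 21, and normexp correction 13 and 15. Calls over all tested genes changed as well, with 29.8%, 33.1%, 31.2%, 47.3% and 35.1% passing in that order. The shares of the guidance genes were 37.9%, 46.6%, 46.6%, 56.9% and 48.3%. Over all tested probes the median change was 0.02 with the main scaling, -0.12 unscaled and -0.18 with spike-in scaling, so the last 2 move every change down by that difference. All 22 genes that passed kept their direction under every scaling. Without Control 2, Control 3 or PRF 2 the falls dropped to 4, while 20.1%, 20.1% and 18.9% of all tested genes passed. The rises stayed at 12 or 13 whichever array was left out.

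Array position was examined in the same way. In row 1 alone (2 control arrays and 1 PRF array) 9 genes rose and 0 fell, and in row 2 alone (1 control array and 2 PRF arrays) 0 passed in limma's test, where 162 of all probes did. At an unadjusted p below 0.05, 16 of the 58 genes differed in row 2, 13 of them higher, and 21 in row 1. The lone array of a group is assumed there to vary like the others. Calls over the whole array were also fewer within each row, and no share of all genes at that unadjusted threshold is given. All 22 genes had the same direction within each row as over both, and with the row as a block 13 rises and 7 falls passed. Under that block 34.5% of the guidance genes passed, as did 23.1% of all tested genes. Nrp2 (adjusted p = 0.0625) and Sema4c (adjusted p = 0.0701) lost their calls under that block.

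**Figure D5:**
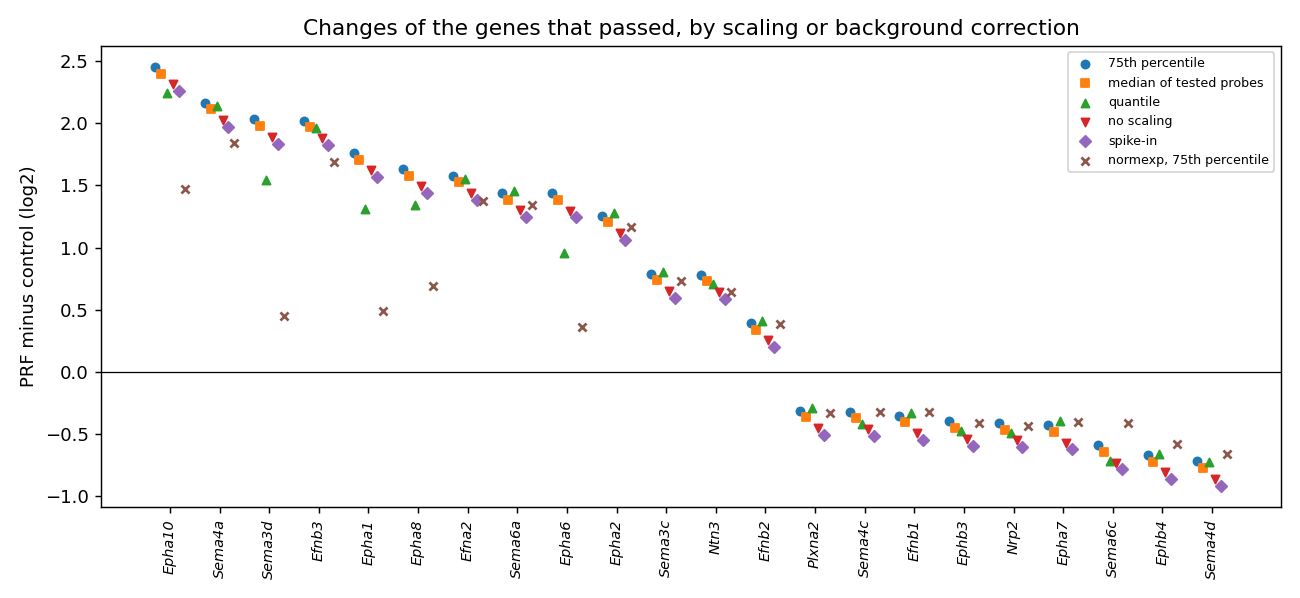
Change after PRF (log2) of each of the 22 genes that passed, under 5 scalings and normexp background correction. No point crosses 0, but normexp with an offset of 50 brings Sema3d, Epha1 and Epha6 to 0.45, 0.49 and 0.36.

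Genes whose products carry guidance signals inside the cell were listed as well, 59 in all, from plexin and Eph effectors to cytoskeletal regulators. Of these 58 were tested, 6 rose and 5 fell (19.0%, against 29.8% of all tested genes), with a median change of -0.03. Fes, a tyrosine kinase that acts below A-type plexins, rose by 1.79 (SE 0.18, 3.46-fold, adjusted p = 9.78e-04). Rnd3, a small GTP-binding protein that loosens actin fibres, rose by 1.28 (2.43-fold, adjusted p = 2.81e-04), and Abl2, a kinase that reorganises actin, by 1.15 (2.22-fold, adjusted p = 7.83e-04). Srgap1, a GTPase-activating protein that binds Robo, rose by 0.76 (1.70-fold, adjusted p = 0.00203) on 2 of 3 probes. Dpysl4, of the collapsin response mediator family that relays Sema3a signals, fell by 0.66 on the log2 scale (1.59-fold, adjusted p = 0.0057).

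Co-receptors and further partners of the guidance receptors were also listed, 33 in all. Of these 28 were tested, 4 rose and 2 fell (21.4%, against 29.8% of all tested genes), with a median change of 0.07. Flrt1, from a family of adhesion proteins that bind Unc5 receptors and latrophilins, read -2.65, -2.67 and -2.91 in control and 1.36, 1.01 and 0.57 in PRF cells. This rise of 3.72 (SE 0.20, 13.2-fold, adjusted p = 1.19e-04) exceeded that of every ligand and receptor above. Kdr, the VEGF receptor that pairs with neuropilins, had no control array well above background and was at least 2.40-fold higher (adjusted p = 6.43e-05). Kdr entered the test through its PRF arrays alone, so it could enter only as brighter after PRF. Its bound is of the processed signals. With a filter on all 6 arrays, 5 genes of this list passed in place of 6. Flrt2 rose by 0.67 (1.59-fold, adjusted p = 0.00666), Erbb2, a partner of B-type plexins, fell by 0.45 on the log2 scale (adjusted p = 0.00286), and Rgma, a ligand of Neo1, fell by 0.32 (adjusted p = 0.0388).

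Promoter windows were found for 61 of the 72 genes and searched on both strands. A CArG box occurred in 1.63% of all 32851 windows, AP-1 in 5.20%, the cyclic AMP response element in 1.79% and the EGR motif in 0.612%. Beside the 4 printed windows, among genes that did not pass Sema6b held AP-1 and Efna3 the EGR motif, and the untested Robo1 held a CArG box. A heat shock element, searched as the usual triple repeat, was in 0 of these windows, against 0.603% of all. The GC box GGGCGG was in 12 of 14 windows of genes that rose, 10 of 14 of those that fell, 26 of 34 of those that did not pass and 6 of 14 of those not tested, against 35.7% of all windows. Median GC content was 61.0% for windows of genes that rose, 64.5% for those that fell and 67.2% for those that did not pass, against 52.7% for all windows. A match describes these letters and no more.

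Of all tested genes 16.3% rose and 13.5% fell, and the marker counts below are to be read beside those shares. Of the 10 astrocyte markers 8 were tested, 1 rose and 0 fell. The log2 of their summed signals was 5.93 to 6.05 in control and 6.09 to 6.17 in PRF cells. Markers of other cell types moved in part with PRF. Of 9 neuronal markers 6 were tested, 2 rose (Snap25 by 0.97 and Elavl3 by 1.94) and 1 fell, and the median change over the 6 was -0.16. Rbfox3 and Stmn2 were not above background on any array. The log2 of the summed signals of the neuronal markers was 5.71 to 5.78 in control and 5.65 to 5.76 in PRF cells. The brightest probes weigh most in such a sum, and the summed levels below were made in the same way. Of 6 microglial markers 3 were tested and Itgam rose by 0.86, whereas Aif1, Cx3cr1 and P2ry12 were on no array above background. The summed microglial level was 3.15 to 3.21 against 3.72 to 4.16. Of 6 fibroblast markers 5 were tested and 3 rose, with Lum not well above background on any array. Only 3 of the 5 tested had a probe well above background on all 6 arrays. The summed fibroblast level was 0.19 to 0.39 against 0.81 to 0.96. All 5 oligodendrocyte markers considered were tested, 1 rose and 2 fell, and they summed to 6.20 to 6.27 against 5.74 to 6.09. Of 5 endothelial markers 2 were tested and 0 passed, nor did any at an unadjusted limma p below 0.05. Their summed level was -1.25 to -1.10 against -1.12 to -0.93, and Cdh5 and Cldn5 were not well above background on any array. The part of these markers in the changes above was not tested.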

How the data were processed

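Total RNA of 6 cultures, 3 control and 3 PRF, was hybridised to one-colour Agilent arrays. The deposited intensity values are background-corrected processed signals. Per the file headers, Agilent Feature Extraction 10.7.3.1 made these intensity values, and they were not normalized between arrays. Here control spots and outlier spots were left out, spots of a probe were averaged, log2 was taken and each array's 75th percentile was subtracted. Probes detected well above background on all arrays of either group (34838) entered a model of group alone in limma 3.58.1 (R 4.3.3; lmFit, eBayes), with Benjamini-Hochberg adjustment. Probes were named through RefSeq transcripts of GRCm38.p6, which gave 32994 probes a symbol. The array design uses an older build, so gene coordinates are not given. Sequences of probes and proteins are not used here.

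Named genes were all members that passed, the 2 brightest of each family, a fixed set of well-known members, members whose probes disagree, and the 5 largest changes of each partner list. Members and lists were chosen with earlier results of these data known. Genes outside this rule are given for completeness of a family and were named after their values were seen. Alternatives were other scalings, background correction, filters, blocks, array rows, the deposited series table, leaving out each array and another choice of the probe that represents a gene. The fit was tested on simulated data. For oligodendrocytes, 1 marker is not reported here.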

Additional observations from a re-analysis of the deposited data

How the results depend on the processing

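Over 18 other settings for each gene that passed (17 for Epha1, Epha6 and Sema3d, which a filter on all 6 arrays left out), every one of the 22 kept its direction wherever it was tested. The same replicate numbers occur in both groups, and same-numbered arrays lay in the same column of the slide. Their deviations from the group means correlated at r = 0.15, -0.08 and 0.05, against -0.17 to 0.13 for arrays of different number. With 3 arrays a group, these values cannot settle whether the numbers pair the cultures. With a replicate block 14 genes rose and 7 fell, the calls of Plxna2 and Sema4c were lost, Dcc passed (adjusted p = 0.0393), 1 plexin or neuropilin and 2 netrin-family genes passed, and 9422 of all probes passed. In the main setting these family counts were 2 and 1.

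Plexins and neuropilins had 5 calls with median scaling, no scaling, normexp and spike-in scaling, 0 without a filter and 1 with array row as a block. Falls numbered 14 with median scaling, 15 without scaling and with normexp, 21 with spike-in scaling and 5 without a filter. With spike-in scaling 11 semaphorins, 50 member probes and 25 signalling genes passed, and without a filter 7 signalling genes did. Over all tested genes, 47.3% passed with spike-in scaling and 15.6% without a filter, against 29.8% in the main setting. The shares were 33.1% with median scaling, 31.2% without scaling and 35.1% with normexp. In row 1 alone, 9 member genes, 10 member probes, 3 Eph receptors, 2 ephrins, 4 semaphorins, 0 plexins or neuropilins, 0 netrin-family genes, 0 falls, 2 co-receptors, 4 signalling genes and 3209 of all probes passed. In row 2 alone, limma's adjusted p passed 0 members in any family, in either direction (16 at an unadjusted p below 0.05), 0 member probes, 0 signalling genes, 1 co-receptor and 162 of all probes. Those fits have 3 arrays, so the lower counts come with fewer samples.

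The Eph receptor median of 0.65 was -0.061 with a filter on all 6 arrays, 0.069 without a filter, 0.51 unscaled and after quantile normalization, 0.46 under spike-in scaling, 0.23 with normexp and 0.55 in row 1. The Slit and Robo median was -0.094 unscaled, -0.19 after quantile normalization and -0.15 under spike-in scaling. The plexin and neuropilin median was -0.20 unscaled, -0.26 with spike-in scaling and -0.17 in row 2, and spike-in scaling gave -0.34 for ephrins and -0.31 for semaphorins.

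Changes of genes that did not pass turned sign in places. Plxnb2 was -0.012 with row as a block, -0.046 with median scaling and quantile normalization, -0.047 with normexp, -0.13 unscaled, -0.19 with spike-in scaling and -0.069 in row 2. Sema3b was -0.013 with median scaling, -0.0028 after quantile normalization, -0.10 unscaled, -0.15 under spike-in scaling and -0.031 in row 2. Ephb2 was -0.011, -0.098 and -0.15 with median, no and spike-in scaling. Slit1 was -0.019 unscaled, -0.33 after quantile normalization and -0.072 under spike-in scaling, Unc5b -0.074, -0.13 and -0.0048 unscaled, with spike-in scaling and in row 2, Neo1 -0.034 with spike-in scaling, and Ntn1 and Plxna1 0.054 and 0.0068 in row 1. The cause was not tested, apart from the downward shift that spike-in and no scaling give to all probes.

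Leaving out each array in turn gave 0 to 3 plexin and neuropilin calls, 4 to 12 falls, 6 to 10 signalling genes and 7220 to 10684 of all probes. The changes ran from -0.050 to 0.055 for Plxnb2, -0.058 to 0.26 for Slit1, -0.060 to 0.015 for Slit2, -0.0040 to 0.081 for Sema3b, -0.064 to 0.034 for Nrp1, -0.20 to 0.10 for Ntn1 and -0.12 to 0.012 for Plxna1. The files hold no mean signal column, so normexp used the median signals. A block for slide or scan was not run, since all arrays share 1 of each. Dim probes limit the sizes given: the changes of Sema3d, Epha1, Epha6, Epha8 and Epha10 were smaller with normexp and its offset of 50.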

Other observations

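Of the 3 genes that share only a symbol prefix with the guidance families, Unc50 was tested, with a change of -0.18 (limma, adjusted p = 0.103), and Plxna4os1 and Unc5cl were not. The Unc5cl probe read -3.54 on the array Control 3 and between -8.04 and -7.80 on the other 5 arrays. Of the 18 guidance genes with more than 1 tested probe, Sema6a and Ephb4 passed on every probe, 6 passed on some (Epha7, Nrp2, Plxna2, Sema3a, Sema4c and Sema6c) and 10 on none.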
